A study of Mus musculus with 16 samples.

Results

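The genes described here are 10 transmitter and peptide genes of cortical interneurons, taken from the 24060 genes measured in every library by their symbols. They were Gad1, Gad2 and Slc32a1, Sst, Pvalb and Vip, and Npy, Cck, Tac1 and Crh, and all 10 were found in all 16 libraries. RNA was sequenced from the somatosensory cortex of Aldh1l1CreERT2-RiboTag mice on the C57BL/6J background, labelled 3 months old. In these mice a Cre that is active only after tamoxifen, driven by the astrocyte gene Aldh1l1, switches on a tagged ribosomal protein, so that ribosomes of astrocytes can be pulled down with the RNA they carry. Naïve and stressed mice alike carried the transgenes and had received tamoxifen at 2 months. Stressed mice were placed in a bucket of water for 20 min and then rested for 90 min in the home cage, and naïve mice never left it. Each mouse tissue gave an INPUT fraction, the cleared lysate with RNA of all cortical cells, and an IP fraction, the immunoprecipitate of tagged ribosomes. There were 4 libraries each of naïve INPUT, stress INPUT, naïve IP and stress IP, and each library is named below by the number it has in the labels. Which IP and INPUT library came from the same mouse was not given with the samples.

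Inhibitory interneurons of the cortex make GABA from glutamate with the decarboxylases GAD67 (Gad1) and GAD65 (Gad2) and load it into vesicles with the transporter VGAT (Slc32a1). Most cortical interneurons belong to subclasses marked by parvalbumin (Pvalb), somatostatin (Sst) or vasoactive intestinal peptide (Vip), and many release neuropeptides such as neuropeptide Y (Npy), cholecystokinin (Cck), substance P (from Tac1) or corticotropin-releasing hormone (Crh) beside GABA. Cck is also made by many excitatory neurons of the cortex, so that its level in whole cortex is not a level in interneurons alone. Astrocytes take up and break down GABA and are not known as its main source, so the level of these genes in IP is described here as a residual level.

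The libraries held 16392876 to 25814364 reads counted on genes. Levels are given as CPM, reads per 1000000 reads counted on genes, and 3 reads came to at most 0.183 CPM in any library. The 8 astrocyte markers, such as Slc1a2 and Gja1, summed to 5532 to 6416 CPM in INPUT and to 88717 to 100166 CPM in IP. All 8 were higher in IP in both conditions (limma, Benjamini-Hochberg adjusted p under 0.05). The summed level of 8 pan-neuronal genes fell from between 11337 and 12934 CPM in INPUT to between 955 and 1145 CPM in IP. None of these 16 marker genes was at 0 in any library. Because RNA of whole tissue was measured, fewer cells of a type and less RNA per cell cannot be told apart in INPUT.

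**Figure D1:**
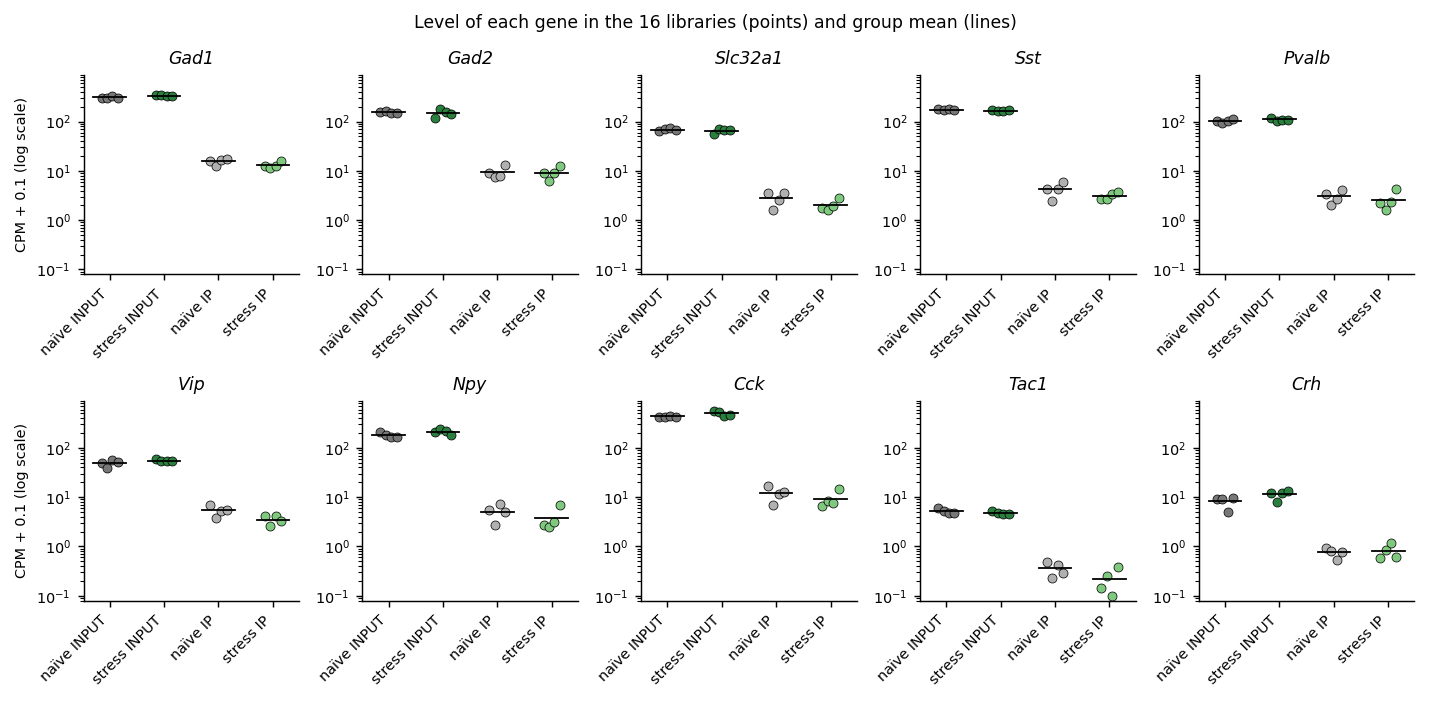
CPM + 0.1 on a log axis for each of the 10 genes in the 16 libraries (points) with group means (lines), for naïve INPUT, stress INPUT, naïve IP and stress IP. Every gene sits lower in all IP libraries than in all INPUT libraries, while the naïve and stress points of a fraction lie close together.

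In naïve whole cortex the genes spanned a wide range of levels. Per kilobase of exon (CPM divided by exon length in kilobases, RPKM), Cck was at 333 ± 6.06 and Npy at 321 ± 34.3 (mean ± SD, n = 4), and their values overlapped. Sst followed at 244 ± 4.32 RPKM and Pvalb at 99.0 ± 6.35 RPKM, each clear of its neighbours in this order. Gad1 was at 40.3 ± 1.34 RPKM, above Gad2 at 26.4 ± 0.812 and Slc32a1 at 24.6 ± 1.62, and the values of the last pair overlapped. Vip came next at 14.4 ± 2.02 RPKM, then Crh at 6.21 ± 1.65 and Tac1, the least abundant per length, at 1.501 ± 0.151. The order rests on exon lengths joined over all annotated transcripts of a gene, which ran from 566 bp for Npy to 7639 bp for Gad1. These can exceed the length of the transcript expressed, and reads were counted on another annotation, so the order may change with the lengths used.

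The first question was how much of this interneuron RNA remained in the astrocyte immunoprecipitate. All 10 genes were lower in IP than in INPUT in naïve mice and again in stressed mice, with no overlap between the fractions for any of them (limma, Benjamini-Hochberg adjusted p from 7.17503e-14 to 1.34388e-08 in naïve and from 3.49398e-13 to 1.36379e-07 in stressed mice). The share of all genes without such overlap was not counted. Lower levels in IP were common, however. Of the genes tested, 64.0% in naïve mice and 62.5% in stressed mice were called lower too. The place of the 10 genes within that majority differed from gene to gene, and 4 peptide and calcium-binding protein genes lay at its extreme.

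Somatostatin, the peptide that marks dendrite-targeting interneurons, had the lowest ratio of IP over INPUT of all 13339 genes tested in naïve mice. Sst was at 177, 173, 179 and 173 CPM in naïve INPUT replicates 3, 7, 14 and 16, and at 4.21, 2.37, 4.23 and 5.89 CPM in naïve IP replicates 2, 8, 11 and 13. The IP values lay far under every INPUT value, with replicate 8 the lowest and replicate 13 the highest. The log2 ratio of IP over INPUT was -5.43 ± 0.19 (SE), and the IP mean was 2.38% ± 0.818 (SD, n = 4) of the INPUT mean.

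Cck, Npy and Pvalb held the next places. Cck was at 433, 429, 447 and 432 CPM in the naïve INPUT libraries and at 16.5, 6.90, 11.4 and 12.8 CPM in the naïve IP libraries, in the same order of replicates. Its log2 ratio was -5.25 ± 0.19 (SE), with 2.74% ± 0.912 remaining. Replicate 8 was again the lowest of the IP libraries, and replicate 2 was the highest. Npy, at 208, 185, 166 and 168 CPM in INPUT, was at 5.38, 2.60, 7.13 and 4.96 CPM in IP, a log2 ratio of -5.23 ± 0.22 with 2.76% ± 1.03 remaining. Pvalb, which encodes the calcium buffer of fast-spiking interneurons, was at 104, 94.9, 102 and 111 CPM in INPUT and at 3.38, 1.97, 2.62 and 3.95 CPM in IP, a log2 ratio of -5.11 ± 0.16 with 2.89% ± 0.840 remaining. Resp18, the gene after these, was at -4.90. In stressed mice Npy (-5.94 ± 0.26), Cck (-5.81 ± 0.19) and Sst (-5.77 ± 0.11) had the 3 lowest ratios of 13333 genes, and Pvalb (-5.51 ± 0.22) was the fifth from the bottom, after Cox6a2. These places depended on how low values were handled. Over the 18 settings tried, between 0 and 13 genes lay under each of the 4 in naïve mice and between 0 and 19 in stressed mice, and the larger numbers came with a smaller pseudocount or with limma-voom on read counts.

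The genes of GABA synthesis and loading were less far down. Gad1 had 15.9, 12.2, 16.8 and 17.6 CPM in naïve IP replicates 2, 8, 11 and 13 against a mean of 308 ± 10.3 CPM in INPUT, so that 5.07% ± 0.776 remained at a log2 ratio of -4.31 ± 0.10. Gad2 stood at 6.07% ± 1.62 (log2 ratio -4.06 ± 0.13) and the vesicular transporter gene Slc32a1 at 3.93% ± 1.34 (-4.68 ± 0.20). Replicate 8 held the lowest value of all 3 genes. Slc32a1 shares 697 bp of exon with an antisense gene, and the strand setting of the read counting is not given in the sources used here, so reads of the pair cannot be told apart.

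Vip, whose interneurons mostly inhibit other interneurons, kept the largest share in naïve mice. It was at 49.1, 39.9, 56.3 and 51.3 CPM in the naïve INPUT libraries and at 6.95, 3.67, 5.17 and 5.35 CPM in the naïve IP libraries. That left 10.8% ± 2.73 at a log2 ratio of -3.22 ± 0.16, with 997 of 13339 genes lower. Crh (8.04% ± 2.06, log2 ratio -3.43 ± 0.25) and Tac1 (5.06% ± 2.27, log2 ratio -3.91 ± 0.26) rest on few reads, with 11 to 17 reads per naïve IP library for Crh and 3 to 8 for Tac1. In stressed mice, 6.19% ± 1.27 of Vip, 6.16% ± 2.27 of Crh and 2.54% ± 2.68 of Tac1 remained, and Tac1 had 0 reads in stress IP replicate 6.

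**Figure D2:**
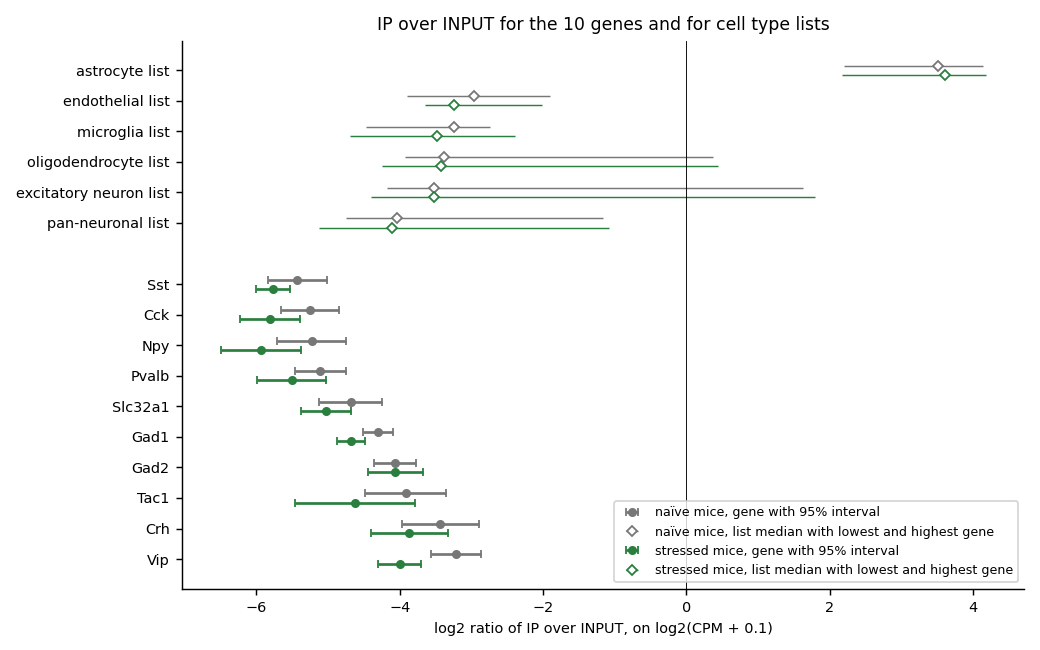
Log2 ratio of IP over INPUT for the 10 genes (filled points with 95% intervals) and for cell type lists (open diamonds at the list median, lines from the lowest to the highest gene), in naïve (grey) and stressed (green) mice. Sst, Cck, Npy and Pvalb lie under -5 in both conditions, while the medians of the pan-neuronal list are -4.04 and -4.11 and those of the astrocyte list 3.51 and 3.61.

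Log2 CPM ratios shift with the scaling. The median over all genes was -0.64 in naïve and -0.63 in stressed mice. With median ratio scaling these medians were -0.17 and -0.19, and the 10 genes then ran from -4.97 (Sst) to -2.75 (Vip) in naïve mice. All 10 were still called lower, as were 6379 of the 13339 genes tested.

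To compare the genes with neuronal RNA at large, each was also set against the mean of the 8 pan-neuronal genes of the same library. In naïve mice 7 of the 10 genes were lower in IP than that mean (Gad1, Gad2, Slc32a1, Sst, Pvalb, Npy and Cck), where 1.43% of all genes were. This was not particular to the 10 genes. Of the 8 pan-neuronal genes 4 were also called lower than their own mean, namely Snap25 (-0.96), Eno2 (-0.59), Stmn2 (-0.50) and Tubb3 (-0.42), and 1 was called higher. The call of Gad2 was the least stable, held in 13 of 17 alternatives, and was lost with pseudocount 1 (adjusted p = 0.0841742), with 1 model for all 16 libraries (0.0526661), without naïve IP replicate 8 (0.0623981) and without Map2 in the list (0.369642). In stressed mice 6 of the 10 were lower, Gad2 being the one no longer called, where 1.41% of all genes and 3 of the 8 pan-neuronal genes were. The largest differences were those of Sst (-1.64 ± 0.15 and -1.83 ± 0.12, log2 ± SE, naïve and stressed), Cck (-1.46 ± 0.15 and -1.87 ± 0.16), Npy (-1.44 ± 0.18 and -1.998 ± 0.207) and Pvalb (-1.32 ± 0.13 and -1.57 ± 0.19). Vip was higher than the pan-neuronal mean in naïve mice by 0.57 ± 0.14 (adjusted p = 0.000888576), as were 94.2% of all genes, and not distinguishable from it in stressed mice (-0.06 ± 0.16, adjusted p = 0.724792, 95% interval -0.39 to 0.28). Tac1 and Crh were not called in either condition.

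The reference list was uneven, and some of these calls rest on it. Map2, a dendritic microtubule gene counted among the pan-neuronal genes, kept 44.8% of its INPUT level in naïve IP, while the other 7 genes kept 3.76% (Snap25) to 7.36% (Nefl). Without Map2, an alternative added after the data were seen, the call of Gad1 was lost in naïve mice (-0.15, adjusted p = 0.11864). Gad2 changed sign (0.10) and Crh was called higher (0.73, adjusted p = 0.00837366), as were 12974 of the 13339 genes tested. In stressed mice Vip was then called higher (0.35, adjusted p = 0.0468611), as were 12915 of the 13333 genes tested. The 4 lowest genes and Slc32a1 were still called lower in both conditions, where 41 of all genes were in naïve and 50 in stressed mice. Sst was at -1.27 and -1.42, Npy at -1.07 and -1.59, Cck at -1.09 and -1.46, Pvalb at -0.95 and -1.16, and Slc32a1 at -0.52 and -0.68. Against the 10 excitatory neuron genes instead, which include Rorb at 308% of its INPUT level in IP, Vip changed sign in naïve mice (-0.32, adjusted p = 0.0621238). All 10 genes were then called lower in stressed mice, as were 927 of the 13333 genes tested.

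The residual level also moved from one IP library to the next. Among the naïve mice replicate 8 was the lowest for 9 of the 10 genes, all but Crh. As a percent of the naïve INPUT mean, Sst was at 2.40, 1.35, 2.41 and 3.35% in replicates 2, 8, 11 and 13, and Cck was at 3.79, 1.58, 2.62 and 2.95%. Of the 8 pan-neuronal genes, 4 were lowest in replicate 8 (Snap25, Tubb3, Eno2 and Stmn2) and 4 were not, with Rbfox3 at 6.70, 7.62, 4.85 and 8.41% and Map2 highest there. Among the stressed mice replicate 15 was the highest for 8 of the 10 genes, all but Vip and Crh. These included Sst (2.14% against 1.52 to 1.97%), Cck (2.87% against 1.29 to 1.68%) and Npy (3.17% against 1.11 to 1.42%), while Vip was at 5.82% against 4.56 to 7.19% and Crh at 4.59% against 4.31 to 9.23%. Of the pan-neuronal genes 5 were highest in replicate 15, such as Snap25 (3.76% against 2.38 to 2.73%), and 2 were lowest there, Rbfox3 (4.79% against 5.63 to 6.55%) and Map2 (44.7% against 47.4 to 48.2%). The part that neuronal RNA at large plays in the spread of the interneuron genes was not tested.

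**Figure D3:**
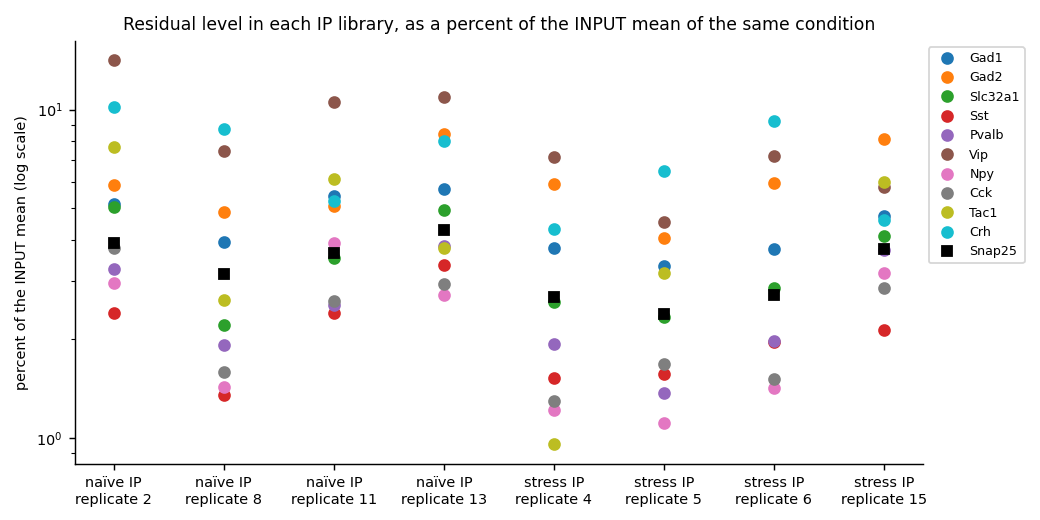
Level of each gene in the 8 IP libraries as a percent of the INPUT mean of the same condition, on a log axis, with Snap25 (black squares) beside the 10 genes. Most genes are low in naïve replicate 8 and in stress replicates 4, 5 and 6, and Tac1, with 0 reads in stress replicate 6, is not drawn there.

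The next question was whether acute stress altered these genes in whole cortex. None of the 10 genes passed the threshold in INPUT (limma, adjusted p from 0.705623 to 0.994017), where 0.0442% of the 13577 genes tested did. At an unadjusted p under 0.05 there were 4 of the 10, namely Cck, Gad1, Npy and Crh, where 5.03% of all genes were. The 4 libraries of each group did not overlap for 3 of the 10, Gad1, Cck and Sst, where the same held for 2.87% of all genes. Such a separation gives the smallest p that the exact permutation test allows with 4 against 4 libraries, 0.029 (two-sided). The median log2 fold change of the 10 genes was 0.12, beside -0.0025 over all genes.

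Cck had the smallest unadjusted p of the 10. It was at 433, 429, 447 and 432 CPM in naïve INPUT replicates 3, 7, 14 and 16 and at 555, 541, 449 and 466 CPM in stress INPUT replicates 1, 9, 10 and 12. The stressed mice fell into a higher pair, replicates 1 and 9, and a pair, replicates 10 and 12, that lay just above the naïve values. The log2 fold change was 0.20 (95% interval 0.06 to 0.35, adjusted p = 0.705623 by limma). Npy, a peptide of many somatostatin and neurogliaform cells, was at 211, 245, 216 and 178 CPM after stress against 208, 185, 166 and 168 CPM in naïve mice, and the groups overlapped (log2 fold change 0.23, 95% interval 0.03 to 0.42, adjusted p = 0.950512).

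Gad1 was at 303, 301, 323 and 305 CPM in naïve INPUT and at 338, 341, 331 and 330 CPM in stress INPUT. Replicate 14 was the highest of the naïve libraries and the only one near the stressed mice. The log2 fold change was 0.12 (95% interval 0.02 to 0.22, adjusted p = 0.874944). The other genes of GABA synthesis and loading were not placed on the same side, with log2 fold changes of -0.06 for Gad2 (95% interval -0.26 to 0.13) and -0.08 for Slc32a1 (-0.24 to 0.09). Gad2 varied more among stressed mice, from 120 CPM in replicate 1 to 176 CPM in replicate 9, than among naïve mice, from 151 to 162 CPM.

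Sst went the other way by a small amount. The stress INPUT libraries were at 169, 166, 165 and 168 CPM, all under the lowest naïve value of 173 CPM. Its log2 fold change was -0.07 (95% interval -0.17 to 0.03, adjusted p = 0.994017), and its coefficient of variation, 1.77% in naïve and 1.13% in stressed mice, was the lowest of the 10 genes in both groups. Pvalb (log2 fold change 0.11, 95% interval -0.02 to 0.24) and Vip (0.18, -0.02 to 0.37) overlapped between the groups.

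Crh, which encodes the peptide that starts the hormonal stress response when released in the hypothalamus, had the largest fold change of the 10 in cortex and the widest interval. It was at 9.21, 9.30, 4.94 and 9.36 CPM in naïve INPUT and at 12.0, 7.94, 12.2 and 13.3 CPM in stress INPUT. Naïve replicate 14 was far under the other naïve libraries and stress replicate 9 fell among them, so the groups overlapped. The log2 fold change was 0.49 (95% interval 0.04 to 0.94, adjusted p = 0.971207), and over the fits that left out 1 library it ran from 0.26 to 0.65. Tac1 was at 5.82, 5.12, 4.69 and 4.78 CPM in naïve INPUT and at 5.19, 4.70, 4.43 and 4.36 CPM in stress INPUT, with a log2 fold change of -0.12 (95% interval -0.41 to 0.16).

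**Figure D4:**
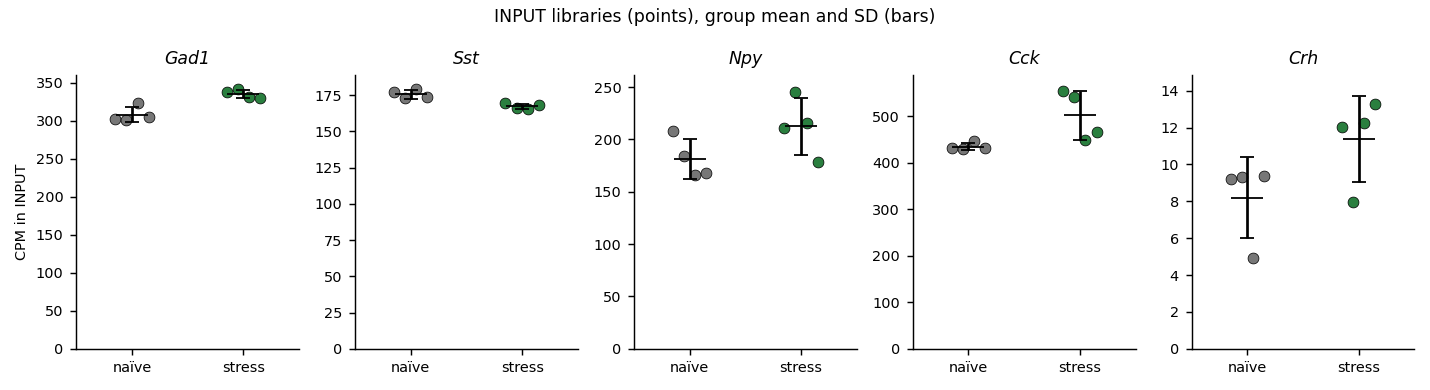
CPM in the INPUT libraries of naïve and stressed mice (points) with the group mean and SD (bars), for the 5 genes with non-overlapping groups or an unadjusted p under 0.05. The stressed mice lie above the naïve ones for Gad1 and Cck and under them for Sst, and the groups overlap for Npy and Crh.

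The promoters of the 3 genes whose INPUT groups did not overlap are shown, because the cyclic AMP response element, through which neuronal activity acts on several neuropeptide genes, is a well-known feature of the somatostatin promoter. Of the 10 genes 9 were matched, all but Crh. The sequences are those of RefSeq on GRCm38.p6, from 250 bases before to 50 bases after the annotated start, on the strand of the gene. They lie at chr16:23890795-23891094 on the minus strand (Sst), chr9:121495645-121495944 on the minus strand (Cck) and chr2:70561879-70562178 on the plus strand (Gad1). Capitals mark the motif TGACGTCA or its shorter forms TGACG and CGTCA, which are contained in it and are the same site read from either strand.
Sst: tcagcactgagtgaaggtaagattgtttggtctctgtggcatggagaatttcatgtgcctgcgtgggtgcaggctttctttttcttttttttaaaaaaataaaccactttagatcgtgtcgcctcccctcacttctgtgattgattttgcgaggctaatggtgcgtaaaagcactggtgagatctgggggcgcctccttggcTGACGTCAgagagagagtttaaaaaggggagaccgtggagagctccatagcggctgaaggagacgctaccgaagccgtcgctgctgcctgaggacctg
Cck: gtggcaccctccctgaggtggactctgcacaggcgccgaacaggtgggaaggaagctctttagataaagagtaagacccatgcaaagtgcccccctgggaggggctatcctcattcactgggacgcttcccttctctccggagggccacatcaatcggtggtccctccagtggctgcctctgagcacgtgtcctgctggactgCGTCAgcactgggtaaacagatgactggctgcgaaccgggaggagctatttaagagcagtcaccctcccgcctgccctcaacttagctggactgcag
Gad1: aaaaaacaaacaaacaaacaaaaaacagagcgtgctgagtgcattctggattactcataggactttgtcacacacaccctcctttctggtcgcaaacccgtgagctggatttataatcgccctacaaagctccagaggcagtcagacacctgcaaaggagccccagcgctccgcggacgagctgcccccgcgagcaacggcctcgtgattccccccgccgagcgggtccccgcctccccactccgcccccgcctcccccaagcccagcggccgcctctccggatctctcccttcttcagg

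The Sst window held the full motif 48 bases before the start, and the Cck window held the shorter form 47 bases before it. The Gad1 window held neither, nor did those of Npy, Pvalb and Slc32a1. The shorter form was also present in the windows of Vip, Gad2 and Tac1. Over 32851 RefSeq promoters of the same length, 20.8% held the shorter form on either strand and 1.79% held the full motif, so its presence describes these windows and no more.

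In the immunoprecipitate, stress was tested for the 8 genes with a mean above 1 CPM, which left out Tac1 and Crh. None of the 8 passed the threshold (limma, adjusted p from 0.428682 to 0.959947), where 0.44% of the 12501 genes tested did. Vip alone had an unadjusted p under 0.05, where 8.27% of all genes did, and the groups overlapped for all 8, where 5.0% of all genes were free of overlap. Vip was at 6.95, 3.67, 5.17 and 5.35 CPM in naïve IP and at 3.97, 2.51, 3.97 and 3.21 CPM in stress IP. The 3 higher naïve libraries lay above all stressed ones and replicate 8 lay among them. Its log2 fold change was -0.60 (95% interval -1.06 to -0.15, adjusted p = 0.428682).

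All 8 estimates were under 0, from -0.06 for Gad2 to -0.60 for Vip, with a median of -0.38. The median over all genes tested was -0.0036. The median log2 fold change of the pan-neuronal list was -0.23, with 6 of its 8 genes under 0, Tubb3 the highest at 0.27 and none past the threshold, and its summed level ran from 1006 to 1145 CPM in naïve IP and from 955 to 1054 CPM in stress IP. Lists of other cells had medians of -0.43 (endothelial, 2 genes tested), -0.33 (mural, 2 genes), -0.25 (oligodendrocyte precursor, 2 genes), -0.20 (excitatory neuron), -0.11 (microglia) and -0.08 (oligodendrocyte), that of the astrocyte list was 0.04, and no gene of any of them passed. With the pan-neuronal mean of each library taken away, an alternative added after the data were seen, Vip stood at -0.46 and Npy at -0.35. Gad2 stood at 0.08, under the median of 0.13 over all genes in that setting. None of the 8 was called, where 67 of the 12501 genes tested were.

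**Figure D5:**
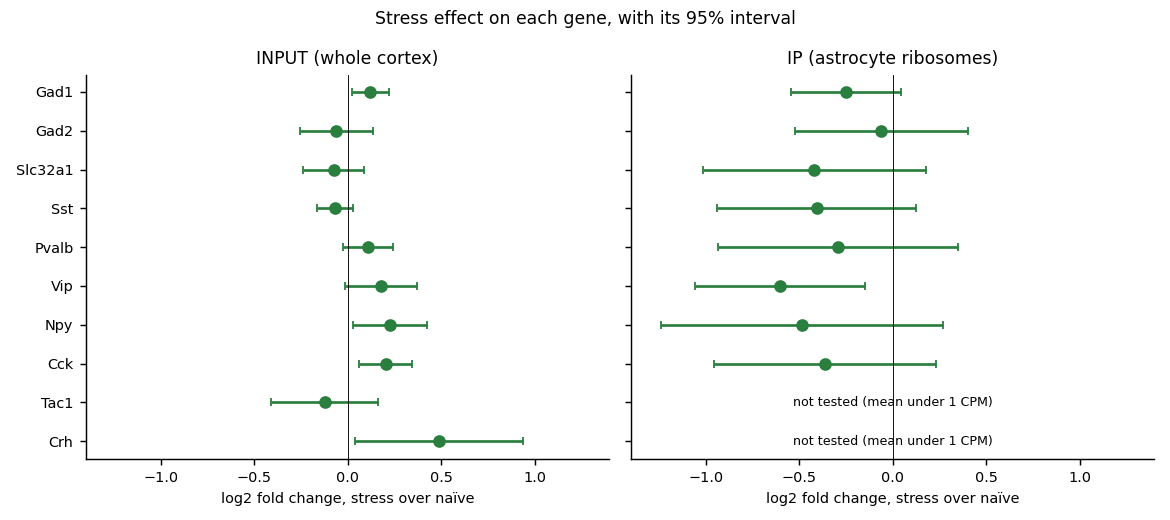
Log2 fold change of stress over naïve for each gene with its 95% interval, in INPUT (left) and IP (right). In INPUT the estimates lie between -0.12 (Tac1) and 0.49 (Crh), in IP all 8 are under 0, and the intervals in IP are wider.

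Whether the stress effect differed between the fractions was tested as an interaction over all 16 libraries. None of the 10 genes passed (limma, adjusted p from 0.607601 to 0.999993), where 0.0225% of all genes did. At an unadjusted p under 0.05 there were 2, Vip (difference of log2 fold changes, IP minus INPUT, -0.78, 95% interval -1.27 to -0.30) and Gad1 (-0.37, -0.67 to -0.07), where 4.71% of all genes were.

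The wider pathway gave the setting for these values, beside 64.0% of all genes lower and 23.7% higher in IP of naïve mice. Of 17 other interneuron genes tested, all 17 were lower in IP of naïve mice, from Crhbp, the binding protein of the Crh peptide (log2 ratio -4.62 ± 0.16), to Calb2, which encodes the calcium buffer calretinin (-2.09 ± 0.16). All 9 other neuropeptide genes tested were lower too, from Grp (-4.85 ± 0.31) to Pthlh (-2.35 ± 0.29). Of 13 genes for peptide processing and dense-core granules 11 were lower, with the granule protein gene Chga at -4.47 ± 0.11, and 2 were higher, with Scg3 the highest at 2.91 ± 0.05. Scg3 stood at 2303 ± 61.4 CPM in naïve IP against 306 ± 6.68 CPM in INPUT.

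Receptors and transcription factors were divided in the same way. Of 12 receptor genes for these peptides 11 were lower in naïve IP, with the neurokinin receptor gene Tacr3 at -4.21 ± 0.31, and Adcyap1r1, a receptor of the family that Vip acts on, was higher at 2.08 ± 0.07. Of 16 interneuron transcription factors 13 were lower, with Npas1 at -3.79 ± 0.26, and 3 were higher, with Npas3 the highest at 3.04 ± 0.06. Among 7 genes of GABA uptake and breakdown 4 were higher and 2 lower. Slc6a11, the GABA transporter GAT-3, had the highest ratio of them at 3.73 ± 0.05. No tested gene of these 6 lists passed the threshold for stress in INPUT or in IP, where 0.0442% and 0.44% of all genes tested did. Many were too low in IP to be tested there. Only 2 of 14 other neuropeptide genes, 9 of 16 receptor genes, 11 of 16 transcription factors and 15 of 18 other interneuron genes were.

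The genes with the most similar profiles differed between the members. Likeness was the root-mean-square difference between log2(CPM + 0.1) profiles over the 16 libraries, each centred on its own mean. The search covered 13328 genes and left out the members, so their likeness to each other was not examined. Most of each profile is the step from INPUT to IP. Gad1 was closest to Gng2 (0.071) and Sv2b (0.077), Gad2 to Camk2n2 (0.140) and Gabra3 (0.159), and Slc32a1 to Mal2 (0.175) and Snap25 (0.185). Pvalb (0.242), Cck (0.367) and Sst (0.378) were all closest to Pcp4 and next to Snap25. Npy was closest to Pllp (0.411) and Snap25 (0.441), Vip to Pcdh8 (0.211) and Gm16532 (0.216), Tac1 to Fibcd1 (0.277) and Tmem158 (0.317), and Crh to Eltd1 (0.287) and Sv2c (0.301). The distances of Sst, Cck and Npy were several times that of Gad1.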

How the data were processed

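Alignment by the authors used STAR on mm10 and counting used HTSeq on RefSeq genes with uniquely mapped reads. The authors deposited 1 table of log2 CPM per library. edgeR and limma are named in the submitters' processing notes, and versions are not given in the sources used here. The floor was the same in all 16 deposited tables, so the added constant was taken off, and CPM and whole reads were recovered. The design foresaw other normalized values, and log2 CPM was used in their place.

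The test was limma (version 3.58.1, R 4.3.3, variance trend) on log2(CPM + 0.1), which understates changes of low genes. Genes averaging more than 1 CPM over the libraries of a comparison entered it, with Benjamini-Hochberg adjustment over all of them and a threshold of 0.05. Exact permutation tests over 70 labelings were two-sided. IP against INPUT was also fitted after subtracting the mean of the pan-neuronal list in each library. Alternatives were the pseudocount (1 and 0.01), the filter (none and 5 CPM), median ratio scaling, limma-voom on reads, no variance trend, 1 model for all 16 libraries, a sex covariate (Xist above 10 CPM in 2 of 4 libraries of every group), another reference list, and leaving out each library.

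The study's methods give 4 mice a group, and a shorter interval between tamoxifen and the experiment than the labels do. For stress within a fraction, p-values measure the spread between these mice. In IP against INPUT, with or without the list subtracted, and in the interaction, libraries were fitted as independent. Both fractions came from the same mice, so those p-values rest on the spread between libraries without a term for the mouse. Members and lists were chosen with earlier results of these data known. The genes named are the members, the highest and lowest gene of each pathway list by naïve IP over INPUT, and the 2 nearest profiles per member. One gene that this rule names is not reported here. Resp18, Cox6a2, Rorb, the pan-neuronal genes named and the within-library ratios were chosen after their values were seen.

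The fit was tested on simulated reads with changed genes. Every changed gene got the same fold, up or down, which was larger than any stress estimate of the members in INPUT or IP. All genes got the same spread, and both groups of a comparison were drawn from the means of its reference group. The recovery therefore does not give the power to find stress effects of the size seen in the members. It recovered 199 of 200 for stress in INPUT (13580 genes), 196 of 196 for naïve IP against INPUT (13585 genes) and 194 of 197 relative to the pan-neuronal list (13595 genes), with 5, 9 and 10 false calls. Libraries held 16392876 to 25814364 reads, and a floor of 3 reads covers counting error only. Exon lengths and overlaps came from GENCODE M21 on GRCm38. Tables were handled in pandas 2.3.3 and NumPy 2.4.6 (Python 3.11.15) and drawn with matplotlib 3.10.9.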

Additional observations from a re-analysis of the deposited data

Results flagged for a closer look

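In 40 groups of 4 libraries, 10 genes in 4 groups, a single library stood apart by Dixon's 95% criterion in 3, where chance gives about 2. Gad1 in naïve INPUT replicate 14 was at 323.3 CPM, beyond the other 3 libraries at 301.3 to 305.0 CPM. Crh in the same library was at 4.937 CPM, under the others at 9.205 to 9.357 CPM. Npy in stress IP replicate 15 was at 6.75 CPM, above the others at 2.367 to 3.012 CPM.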

How the results depend on the processing

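No paired analysis was possible because the labels number the libraries from 1 to 16 and no 2 groups share a number. Counts of called genes among the 10 stayed within 1.5 times the main count in every comparison and alternative, with 1 exception. With the excitatory list as reference, 10 genes were called lower in stressed mice relative to the list, against 6 in the main fit. Over all 13333 genes tested, 927 were called lower in that setting and 188 in the main fit. Of 1241 values of single genes under an alternative, 1195 kept direction and side of the threshold, 6 lost and 16 gained a call, and 30 changed sign (2 of those that lost a call and 4 of those that gained one among them), none of them in IP against INPUT itself; the cause was not tested. For stress in INPUT, Gad2 ran from -0.14 to 0.041 without 1 library. For stress in IP it ran from -0.22 to 0.11 without 1 library. After subtraction of the pan-neuronal mean it was 0.076, where the median over all genes was 0.13. Its interaction was 0.0048 with pseudocount 1, 0.0038 with limma-voom, 0.15 after subtraction (median over all genes 0.15) and -0.16 to 0.17 without 1 library. Relative to the pan-neuronal list in naïve mice, Vip (-0.32) and Crh (-0.53) turned with the excitatory list, Gad2 (0.10) and Tac1 (0.25) without Map2, and Tac1 with pseudocount 1 (1.47) and without 1 library (-0.29 to 0.018). In stressed mice Gad2 (0.28) and Vip (0.35) turned without Map2, Vip (0.22) and Tac1 (1.56) with pseudocount 1, Crh with pseudocount 0.01 (-0.10) and the excitatory list (-0.86), and without 1 library Gad2 (-0.23 to 0.019), Vip (-0.15 to 0.047) and Crh (-0.13 to 0.23). With few reads, Tac1 and Crh were limited by depth in IP.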

Other observations

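Within a library, the ratio of 2 genes does not depend on scaling between libraries. Of 4 such ratios examined after the values were seen, Cck over Sst in INPUT was 2.48 ± 0.021 (SD, n = 4, range 2.45 to 2.49) in naïve mice and 3.01 ± 0.305 (2.72 to 3.28) in stressed mice. The exact permutation test gave 0.0286 for it, the smallest p it allows. This adds no separate support, since the separation follows from that of Cck and Sst themselves and the ratio was chosen after the values were seen. Vip over Sst was 0.279 ± 0.0356 (0.231 to 0.314) in naïve and 0.330 ± 0.0104 (0.322 to 0.345) in stressed mice, also without overlap (exact permutation p = 0.0286). Npy over Sst (exact permutation p = 0.0857) and Gad1 over Gad2 (0.2) overlapped between the groups in INPUT. All 4 ratios overlapped in IP (exact permutation p from 0.343 to 0.857).

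The 4 genes with the lowest IP over INPUT in naïve mice have short transcripts. Npy (566 bp of exon), Sst (721 bp), Pvalb (1041 bp) and Cck (1305 bp) were the 4 shortest of the 10, but Crh, with 1320 bp, kept the second largest share, and Gad1, the longest with 7639 bp, had a lower ratio than Gad2, Tac1, Crh and Vip. Among genes with exons under 1500 bp, 4.53% had a log2 ratio under -4 in naïve mice, against 1.60% of longer genes, over the 95.7% of genes with a known length. In stressed mice these were 6.99% and 2.65%. The part of length in the ratios was not tested.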
